A study of Rattus norvegicus with 9 samples.

Results

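Retinoic acid pathway genes were followed in whole fetal rat lungs. The set comprised 10 genes chosen by symbol for their place in the pathway: the retinol uptake receptor gene Stra6, the retinal dehydrogenase genes Aldh1a1, Aldh1a2 and Aldh1a3, the cellular binding protein genes Crabp1 and Crabp2, the nuclear receptor genes Rara, Rarb and Rarg, and the degrading enzyme gene Cyp26b1. All 10 were found among the 17465 genes of the deposited table, and all 10 were among the 12966 genes that passed the filter on low counts. Total RNA depleted of ribosomal RNA was sequenced from 9 Sprague-Dawley fetal lungs in 3 groups of 3: untreated control lungs, untreated hypoplastic lungs (underdeveloped after oligohydramnios, too little amniotic fluid) and, as the third group, hypoplastic lungs given AFSC-EV (extracellular vesicles from amniotic fluid stem cells), called treated here. The RNA of all lungs was extracted on the same day. The sources used here do not give fetal age, vesicle dose, route, timing or litter. Nothing states that the lungs of a group came from separate litters, so p-values measure only the spread between these samples, part of which may be technical.

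Retinoic acid is made from vitamin A. STRA6 takes up retinol from its carrier in the blood, retinol is oxidised to retinal, and ALDH1A enzymes oxidise retinal to retinoic acid. CRABP proteins bind the acid in the cytoplasm, RAR proteins paired with RXR carry its effect to target genes in the nucleus, and CYP26 enzymes degrade it. In the developing lung the pathway is known for its part in forming the lung bud, in patterning the mesenchyme and, later, in forming alveoli, and Aldh1a2 is known as a gene of mesenchyme and mesothelium, the cell layer that covers the lung.

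Library totals ran from 56922779 to 88243188 estimated counts. Levels are given as CPM (each count scaled to a common library total) after TMM scaling, and they compare 1 gene between lungs. They do not compare genes with each other, because CPM is not corrected for transcript length. Marker genes of lung epithelium were present in every library, with a summed level of 2755 to 5724 CPM over 8 genes, Nkx2-1 and Sftpc among them. Some libraries stood apart in other markers. Heart muscle markers (6 of 6 listed genes passed the filter) summed to 241.1 CPM in hypoplastic library 1 and 113.1 CPM in hypoplastic library 2. They summed to 3.96 to 17.99 CPM in the other 7 libraries, in some of which Myl7 or Nppa was at 0. Nppa was at 0 in hypoplastic library 1 as well, and at 4.56 CPM in hypoplastic library 2. Mesenchymal markers (7 of 7) summed to 11650 CPM in hypoplastic library 2 and to 1473 CPM in control library 2, with 2543 to 5134 CPM in the others. Most of these sums came from the collagen genes Col1a1 and Col3a1, which were at 5816 and 5268 CPM in hypoplastic library 2. In that library Pdgfra (333.1 CPM) and Plin2 (114.9 CPM) were also the highest of the 9, while Tbx4 (91.3 CPM) and Tcf21 (21.75 CPM) lay within the range of the other libraries and Fgf10 (4.62 CPM) was the lowest. Liver markers (0 of 5 passed the filter) summed to 12.57 CPM in control library 2 and to at most 0.1975 CPM elsewhere, with the sum in control library 2 carried by Apob (6.60 CPM) and Apoa1 (5.65 CPM) and with Alb and Afp there at 0.0357 and 0.0713 CPM. In bulk tissue, fewer cells of a type and less RNA per cell cannot be told apart.

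No member passed the threshold in any comparison. edgeR's quasi-likelihood test, with Benjamini-Hochberg adjustment over all 12966 genes, called 0 of 10 members in hypoplastic against control lungs, where it called 0.00771% of all genes. In the treated lungs set against the hypoplastic lungs, and set against the control lungs, it also called 0 of 10, with 0% of all genes called each time. DESeq2 also called 0 of 10 throughout, against 1.62% of all genes in the first comparison, 0.107% in the second and 0.108% in the last. limma voom called 0 of 10 as well, against 0.00771%, 0% and 0%. Without adjustment, 3 members had an edgeR p under 0.05 between hypoplastic and control lungs (Aldh1a3, Crabp2 and Stra6), all higher in hypoplastic lungs, where 12.4% of all genes had such a p and 6.67% were also higher. Between treated and hypoplastic lungs 2 members did (Aldh1a3 and Crabp2), both lower in treated lungs, where 5.56% of all genes did and 3.56% were also lower. Between treated and control lungs 1 member did (Aldh1a2), lower in treated lungs, where 4.17% of all genes did and 2.5% were also lower. The 10 members divided into 6 with a log2 fold change above 0 in hypoplastic against control (51.9% of all genes), 4 between treated and hypoplastic lungs (48.1%) and 6 between treated and control lungs (50.6%). Their median was 0.08, -0.20 and 0.13 in that order, beside 0.01, -0.01 and 0.0028 over all genes tested. The first 2 comparisons share the hypoplastic lungs and the last shares both other groups, so they are not independent of each other.

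**Figure D1:**
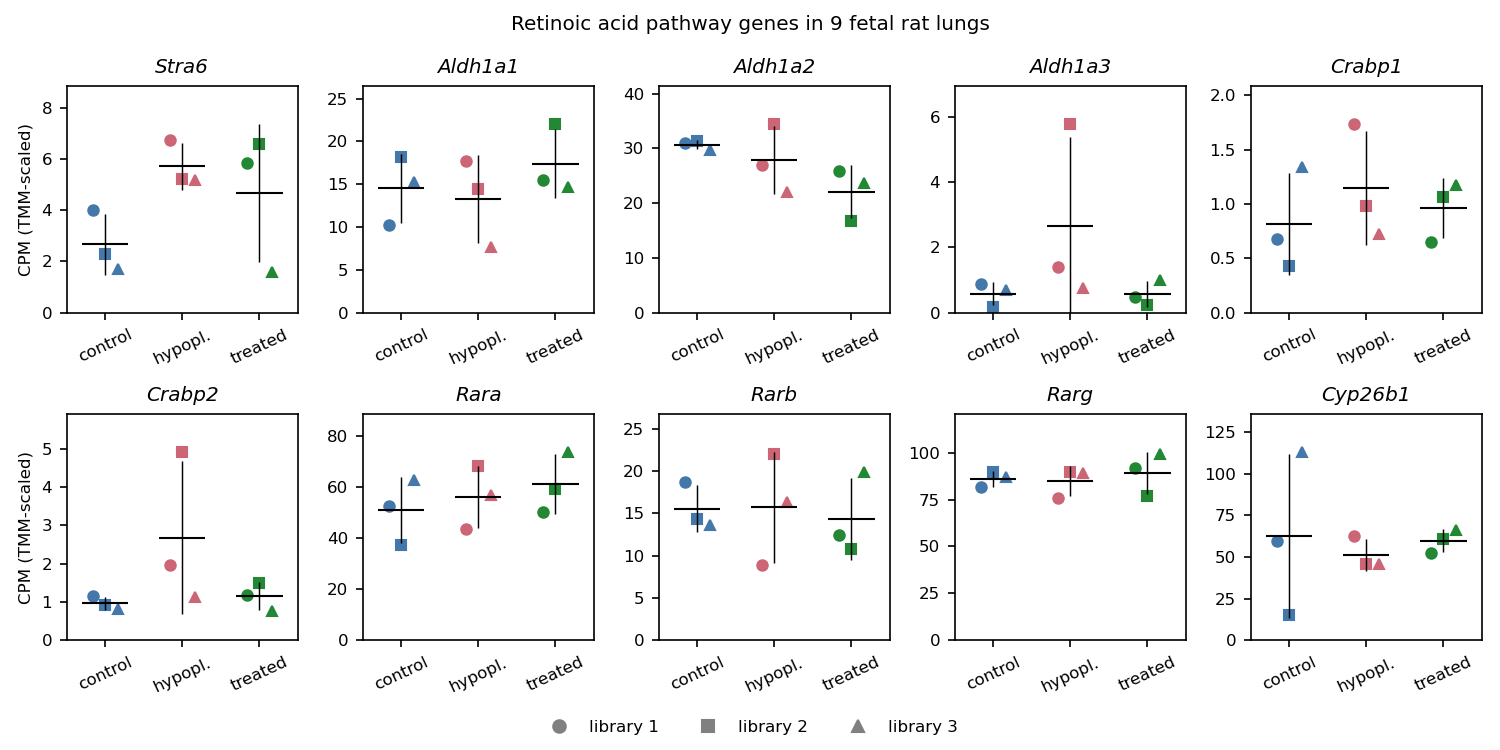
Level of each of the 10 genes in every lung, in TMM-scaled CPM on a linear axis from 0. Each symbol is 1 library (circle, square and triangle for libraries 1, 2 and 3), the horizontal line is the group mean and the vertical line spans 1 SD to each side, cut at 0. Hypoplastic library 2 stood far above the others for Aldh1a3 and Crabp2, and control library 2 far below them for Cyp26b1.

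Stra6 (NCBI Gene ID 363071) encodes the membrane receptor through which cells take up retinol. Its level was 4.01, 2.30 and 1.72 CPM in control libraries 1 to 3, 6.77, 5.21 and 5.18 CPM in the hypoplastic libraries and 5.85, 6.61 and 1.57 CPM in the treated libraries. Every hypoplastic lung was above every control lung, while 2 treated lungs lay within the hypoplastic range and the other was below all control lungs. It was the only one of the 10 members without overlap of the hypoplastic and control libraries, against 16.7% of all genes tested, 7.68% in the same direction. Control lungs had a mean of 2.68 CPM ± 1.19 (SD, n = 3), and hypoplastic lungs one of 5.72 CPM ± 0.911 (SD, n = 3). On the log2 scale they differed by 1.10 (SE 0.483, 95% interval 0.015 to 2.18), with an unadjusted p of 0.0475 and an adjusted p of 0.400 by edgeR. Leaving out any one library of these groups except control library 1 took the unadjusted p above 0.05 (0.0609 to 0.146), with differences of 0.85 to 1.16. Without control library 1 the difference was 1.52. The treated mean was 4.68 CPM ± 2.72 (SD, n = 3). Its log2 difference was -0.28 from hypoplastic lungs (95% interval -1.32 to 0.76) and 0.81 from control lungs (95% interval -0.26 to 1.89), with edgeR adjusted p of 0.962 and 0.998. Leaving out treated library 3 turned the difference from hypoplastic lungs to 0.12. With each library left out, the difference from control lungs ran from 0.48 (without treated library 2) to 1.25 (without control library 1). Neutrophil markers (5 of 5 passed the filter) also summed higher in hypoplastic lungs. Their sums were 52.2 to 95.2 CPM, against 6.60 to 12.9 CPM in control lungs, most of it from S100a8 and S100a9. S100a8, S100a9, Camp and Mpo did not overlap between these groups. Ngp did, at 2.01 CPM in hypoplastic library 2 and 3.64 CPM in control library 2. In treated libraries 1 to 3 the markers summed to 47.9, 18.8 and 78.7 CPM. The library lowest in Stra6 thus had the highest sum of that group. The part of neutrophil markers in the level of Stra6 was not tested. Heart muscle markers summed to 241.1, 113.1 and 3.96 CPM in hypoplastic libraries 1 to 3, and their part was not tested either.

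The 3 retinal dehydrogenase genes differed in which lungs were high and low. Aldh1a1 (NCBI Gene ID 24188), whose product oxidises retinal and other aldehydes, was at 10.2, 18.1 and 15.3 CPM in control, 17.8, 14.5 and 7.64 CPM in hypoplastic and 15.5, 22.1 and 14.7 CPM in treated libraries. All 3 groups overlapped, and the highest and lowest lungs differed by 2.89-fold. The differences on the log2 scale were -0.13 (SE 0.316) in hypoplastic against control, 0.39 (SE 0.315) in treated against hypoplastic and 0.26 (SE 0.315) in treated against control lungs, with edgeR adjusted p of 0.894, 0.940 and 0.998. The intervals of these differences reached from -0.84 to 1.10 in all.

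Aldh1a2 (NCBI Gene ID 116676), the dehydrogenase gene required for retinoic acid in the early embryo, was the most even of the 10 in control lungs. It was at 31.0, 31.4 and 29.7 CPM there, a coefficient of variation of 2.79%. It was at 27.0, 34.5 and 22.1 CPM in hypoplastic and at 25.9, 16.7 and 23.6 CPM in treated libraries. Every treated lung lay below every control lung, and the hypoplastic lungs overlapped both groups. The control mean of 30.7 CPM ± 0.856 (SD, n = 3) stood against a treated mean of 22.1 CPM ± 4.81 (SD, n = 3). The treated lungs differed from the control lungs by -0.48 on the log2 scale (SE 0.194, 95% interval -0.91 to -0.042), with an unadjusted p of 0.0348 and an adjusted p of 0.998 by edgeR. It was the only one of the 10 members without overlap in that comparison, against 9.39% of all genes tested, 5.02% in the same direction. The hypoplastic mean of 27.9 CPM ± 6.25 (SD, n = 3) lay between them, with log2 differences of -0.14 (SE 0.193) of hypoplastic from control and -0.34 (SE 0.194) of treated from hypoplastic lungs, at edgeR adjusted p of 0.799 and 0.915. Without treated library 2, the lowest of all 9, the difference of treated from control lungs was -0.31 (edgeR unadjusted p 0.125). Without 1 of the control libraries it was -0.50 to -0.45, with unadjusted p of 0.0561 to 0.0803.

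Of the 3 genes whose levels ran closest to Aldh1a2 across the 9 lungs, 2 were mesothelial markers. Among 11336 named genes that averaged 1 CPM or more, the 3 with the highest Pearson's r to Aldh1a2 in log2 CPM were Bnc1 (r 0.933, Spearman's rho 0.800), Upk1b (r 0.915, rho 0.783) and Adam4 (r 0.907, rho 0.883). These genes were picked as the highest of all, so the values describe 9 libraries and carry no test. Bnc1 and Upk1b stand on the list of mesothelial markers used for the marker check. Of the other 3 markers on that list that were measured, Wt1 had r 0.776, Msln 0.554 and Krt19, which is also an airway epithelial gene, 0.0293. Without treated library 2 and hypoplastic library 2, which lay farthest from the median of Aldh1a2, r was 0.963 for Upk1b, 0.740 for Bnc1, 0.198 for Wt1, -0.58 for Msln and 0.567 for Krt19. The relation to Wt1 and Msln therefore rested on those 2 lungs.

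Upk1b encodes a uroplakin of the mesothelial surface and was at 7.22, 8.99 and 10.1 CPM in control, 5.40, 5.23 and 2.37 CPM in hypoplastic and 4.38, 0.921 and 3.03 CPM in treated libraries. Every lung with hypoplasia lay below every control lung. Library values did not overlap for 16.7% of all genes in hypoplastic against control and 9.39% in treated against control lungs, in either direction. The share in which both groups lay below the control lungs was not computed. The log2 fold change of Upk1b was -1.66 (SE 0.481) in treated against control lungs (edgeR unadjusted p 0.00651, adjusted p 0.998). There it was -1.10 for Bnc1, -0.50 for Wt1, -0.24 for Krt19 and 0.18 for Msln. In hypoplastic against control lungs it was -1.01 for Upk1b, -0.34 for Krt19, 0.16 for Bnc1, 0.42 for Wt1 and 1.01 for Msln. Bnc1, a transcription factor gene, was at 3.05, 2.23 and 4.64 CPM in control, 2.44, 7.58 and 1.07 CPM in hypoplastic and 2.48, 0.167 and 2.06 CPM in treated libraries. Treated library 2, lowest in Aldh1a2, was also lowest in Bnc1, Upk1b, Wt1 (1.63 CPM) and Msln (11.1 CPM). The sum over the 5 measured mesothelial markers, most of it from Krt19, overlapped between groups, with 222.9 to 322.9 CPM in control, 182.5 to 272.9 CPM in hypoplastic and 189.2 to 251.1 CPM in treated libraries. The part of the mesothelial markers in the level of Aldh1a2 was not tested.

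**Figure D2:**
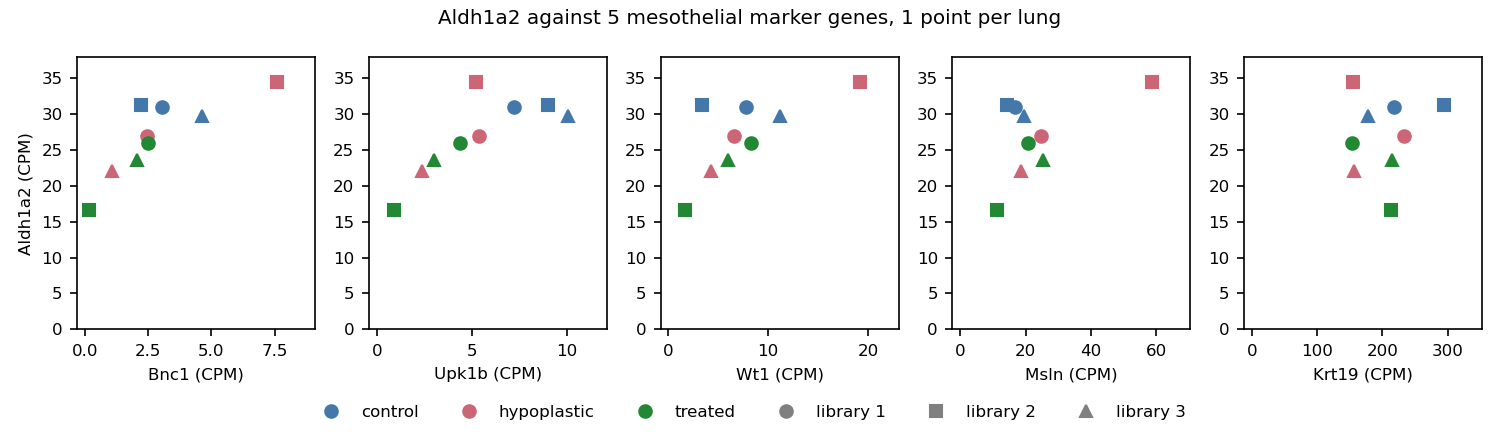
Level of Aldh1a2 (vertical axis, CPM) against each of 5 mesothelial marker genes (horizontal axes, CPM), with 1 point per lung, colour for the group and symbol shape for the library number. Treated library 2 is lowest in Aldh1a2 at 16.7 CPM and lowest in Bnc1, Upk1b, Wt1 and Msln, while Krt19 shows no such order.

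Aldh1a3 (NCBI Gene ID 266603), a dehydrogenase gene known from epithelia and sensory placodes, had the widest range of the set, with 32.41-fold between the highest and the lowest lung and 10 to 354.5 estimated counts per library. It was at 0.858, 0.178 and 0.678 CPM in control, 1.40, 5.78 and 0.760 CPM in hypoplastic and 0.487, 0.227 and 0.999 CPM in treated libraries. Hypoplastic library 2 was more than 4 times as high as any other lung, and hypoplastic library 3 lay within the range of the control lungs. Its log2 difference was 2.18 (SE 0.806, 95% interval 0.37 to 3.99) in hypoplastic against control and -2.25 (SE 0.798, 95% interval -4.04 to -0.46) in treated against hypoplastic lungs, with edgeR adjusted p of 0.359 and 0.891. Without hypoplastic library 2 these were 0.90 and -0.97, with unadjusted p of 0.201 and 0.166. Treated and control lungs had the same mean, 0.571 CPM ± 0.392 and 0.571 CPM ± 0.352 (SD, n = 3 each), and differed by -0.074 on the log2 scale (SE 0.917, 95% interval -2.13 to 1.98). The genes most like Aldh1a3 over the 9 libraries were Olfml2b (r 0.958, rho 0.967), Prox1 (r 0.957, rho 0.883) and Dab2 (r 0.951, rho 0.817), and without hypoplastic library 2 and control library 2 their r was 0.808 to 0.843.

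Of the 2 binding protein genes, Crabp2 (NCBI Gene ID 29563), whose protein delivers retinoic acid to its receptors, also had its highest level in hypoplastic library 2. It was at 1.16, 0.910 and 0.827 CPM in control, 1.97, 4.93 and 1.122 CPM in hypoplastic and 1.19, 1.495 and 0.764 CPM in treated libraries. That library stood at 4.93 CPM, while hypoplastic library 3 lay among the control and treated lungs. By edgeR, the log2 difference was 1.47 (SE 0.510, 95% interval 0.33 to 2.62, edgeR adjusted p 0.338) in hypoplastic against control and -1.21 (SE 0.491, 95% interval -2.31 to -0.11, edgeR adjusted p 0.895) in treated against hypoplastic lungs. Without hypoplastic library 2 these were 0.69 and -0.43, with unadjusted p of 0.104 and 0.277. Treated lungs differed from control lungs by 0.26 (SE 0.532, 95% interval -0.93 to 1.45). The genes most like Crabp2 were S100a10 (r 0.970, rho 0.867), the prostaglandin synthase gene Ptges (r 0.958, rho 0.883) and the chemokine gene Ccl20 (r 0.957, rho 0.933), with r of 0.801 to 0.820 without hypoplastic libraries 1 and 2. Hypoplastic library 2 was also the library with the highest Col1a1, Col3a1, Pdgfra and Plin2 of the mesenchymal markers, though not of Tbx4, Tcf21 and Fgf10, and with the highest sum of the 5 macrophage markers (210.0 CPM, against 25.68 to 178.1 CPM elsewhere). Markers of airway basal and squamous epithelium, a list added after the values were seen, summed to 40.54 CPM in it, within the 23.56 to 104.2 CPM of the other libraries. The part of these cell types in Aldh1a3 and Crabp2 was not tested.

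Crabp1 (NCBI Gene ID 25061), whose protein binds retinoic acid with high affinity, was at 0.674, 0.428 and 1.34 CPM in control, 1.74, 0.980 and 0.724 CPM in hypoplastic and 0.645, 1.06 and 1.18 CPM in treated libraries, which rest on 24 to 114 estimated counts per library. The groups overlapped in each comparison. Hypoplastic lungs differed from control lungs by 0.47 (SE 0.472) on the log2 scale, treated from hypoplastic lungs by -0.27 (SE 0.458) and treated from control lungs by 0.20 (SE 0.471), with edgeR adjusted p of 0.714 or higher.

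The lungs of the 3 groups overlapped for all 3 receptor genes. Rarg (NCBI Gene ID 685072), the receptor gene with the smallest spread, was at 81.5, 89.9 and 87.0 CPM in control, 75.8, 89.6 and 89.1 CPM in hypoplastic and 91.6, 77.2 and 99.4 CPM in treated libraries. The highest and lowest lungs differed by 1.31-fold, the least of the 10 genes. Its biological coefficient of variation, which is edgeR's estimate of the spread between lungs of a group, was 0.123, at percentile 9.81 of all genes tested, while the median gene had 0.180. The 95% interval of its log2 fold change was -0.28 to 0.24 in hypoplastic against control, -0.19 to 0.34 in treated against hypoplastic and -0.21 to 0.32 in treated against control lungs, around differences of -0.022, 0.075 and 0.053 with edgeR adjusted p of 0.954, 0.961 and 0.998. Each of these intervals excludes a difference of more than 1.5-fold in either direction, with no correction for the number of genes.

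Rara (NCBI Gene ID 24705), a receptor gene that is widely expressed in tissues, was at 52.8, 37.3 and 62.8 CPM in control, 43.6, 68.1 and 56.8 CPM in hypoplastic and 50.4, 59.3 and 73.9 CPM in treated libraries. Its means of 51.0 CPM ± 12.9, 56.2 CPM ± 12.3 and 61.2 CPM ± 11.9 (SD, n = 3 each) differed by less than 1 SD, and the lungs of all groups overlapped. On the log2 scale the difference was 0.14 (SE 0.225) in hypoplastic against control, 0.12 (SE 0.225) between treated and hypoplastic and 0.26 (SE 0.225, 95% interval -0.24 to 0.77) between treated and control lungs, with edgeR adjusted p of 0.835, 0.964 and 0.998. Control library 2 was the lowest of the 9.

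Rarb (NCBI Gene ID 24706) is both a receptor gene and a known target of retinoic acid, through a response element at its start. Its site is shown because it was the only paired receptor site found among the 10 members. The start-site windows of RefSeq (build GRCr8, 250 bases before to 50 after each annotated start) were searched on both strands for 4 forms of the receptor half-site. AGGTCA stood in 16.2% of all 33469 windows, AGTTCA in 14.5%, GGGTCA in 13.8% and GGTTCA in 11.7%. All 10 members had a window, and 5 of them (Aldh1a1, Rara, Rarb, Rarg and Stra6) held at least 1 half-site, as did 44.4% of all windows. Pairs of half-sites in the same direction were searched with 5 bases between (DR5) and with 2 bases between (DR2). A DR5 pair, whose half-sites are also counted singly above, stood in 1 member, Rarb, and in 0.382% of all windows. A DR2 pair stood in 0 members and in 0.170% of all windows. Members were counted by gene, with a match in any window of the gene. The shares are of windows, from tested and untested genes, so the 2 measures differ. The 128 windows with a DR5 pair belonged to 116 genes, of which 5 passed the filter on low counts. Among other genes of the pathway, Cyp26a1, which encodes another retinoic acid degrading enzyme, also had a DR5 pair. The 2 sites are given 5′ to 3′ on the strand of the gene, with the half-sites in capitals. In Rarb the pair starts 25 bases into the annotated gene (chr15:11336410-11336439, plus strand). In Cyp26a1 it starts 92 bases before the gene and reads on the opposite strand, so the capitals are the reverse complement of AGTTCA (chr1:244883724-244883753, plus strand). A match is a description of the letters and not of binding.
Rarb: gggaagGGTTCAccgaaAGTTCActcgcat
Cyp26a1: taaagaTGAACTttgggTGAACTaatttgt

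Rarb was at 18.7, 14.4 and 13.6 CPM in control, 8.86, 21.95 and 16.4 CPM in hypoplastic and 12.4, 10.8 and 19.9 CPM in treated libraries. The hypoplastic group held both the highest and the lowest lung of all 9, which differed by 2.48-fold. The log2 difference was 0.0145 (SE 0.327, 95% interval -0.72 to 0.75) in hypoplastic against control, -0.13 (SE 0.327, 95% interval -0.86 to 0.60) in treated against hypoplastic and -0.12 (SE 0.327) in treated against control lungs, with edgeR adjusted p of 0.992, 0.972 and 0.998. Each of these changed sign when some single libraries were left out. Cyp26a1, the other gene with a DR5 pair shown, was at 0.0766 to 0.326 CPM in control, 0.181 to 0.519 CPM in hypoplastic and 0.211 to 0.335 CPM in treated libraries, from 5 to 34 estimated counts. The log2 difference of hypoplastic from control lungs was 0.84 (SE 0.570, edgeR adjusted p 0.568), and the groups overlapped.

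Cyp26b1 (NCBI Gene ID 312495), which encodes the degrading enzyme of the set, varied most among the control lungs. It was at 59.4, 14.9 and 113.4 CPM there, at 62.5, 46.1 and 45.5 CPM in hypoplastic and at 52.3, 60.8 and 66.0 CPM in treated libraries. The highest and the lowest lung of all 9 were both controls and differed by 7.60-fold, and the other 7 lungs lay between them. The coefficient of variation was 78.8% in control, 18.7% in hypoplastic and 11.6% in treated lungs. The difference in spread between groups was not tested. Its log2 difference was -0.29 (SE 0.523, 95% interval -1.46 to 0.89) in hypoplastic against control and 0.22 (SE 0.523, 95% interval -0.95 to 1.39) in treated against hypoplastic lungs, with edgeR adjusted p of 0.858 and 0.969. Between treated and control lungs it was -0.069 (SE 0.522, edgeR adjusted p 0.998). The first was -0.75 without control library 2 and 0.46 without control library 3. The sum of the mesenchymal markers, mostly Col1a1 and Col3a1, ran in the same order among the control lungs, with 3275, 1473 and 5134 CPM in libraries 1 to 3. It did not do so in the other groups, with 3498, 11650 and 4202 CPM in hypoplastic and 3465, 2543 and 4542 CPM in treated libraries. The part of mesenchyme in the level of Cyp26b1 was not tested.

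**Figure D3:**
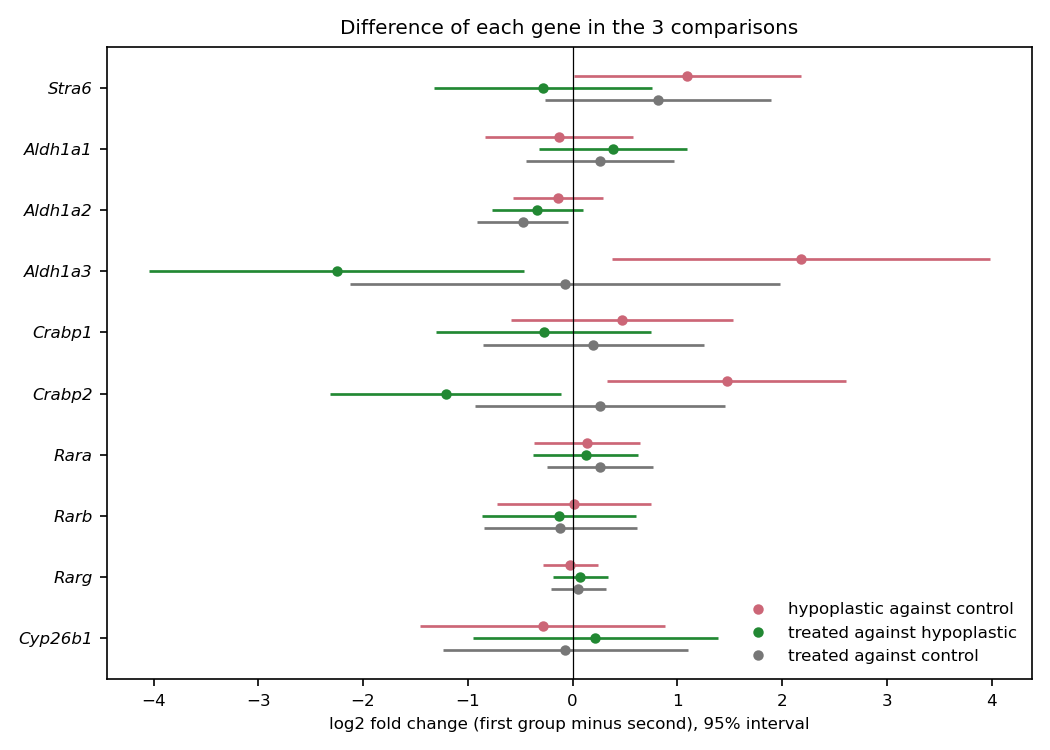
Log2 fold change of each gene (horizontal axis, first group minus second) with its approximate 95% interval from edgeR, in colour for the 3 comparisons. Intervals of Aldh1a3, Crabp2 and Stra6 in hypoplastic against control lungs lie above 0 before adjustment for the number of genes. Those of Aldh1a3 and Crabp2 in treated against hypoplastic lungs and of Aldh1a2 in treated against control lungs lie below 0, also before adjustment.

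The spread between lungs of a group differed between the 10 genes. Beside Rarg, Aldh1a2 (0.186) and Rara (0.206) had a biological coefficient of variation near the median gene, Aldh1a1 had 0.284 and Rarb 0.292, and Stra6, Crabp1, Cyp26b1 and Crabp2 had 0.422 to 0.446, at percentiles 88.5 to 89.9 of all genes. Aldh1a3 had 0.686, at percentile 97.5. Control library 2 was the lowest library in 4 of the 10 genes (Aldh1a3, Rara, Crabp1 and Cyp26b1), and hypoplastic library 2 the highest in 4 (Aldh1a2, Aldh1a3, Rarb and Crabp2). With both left out, a choice made after the values were seen, Aldh1a2 in treated against control lungs (p 0.0429) and Cyp26b1 in hypoplastic against control lungs (p 0.0450) were the only members with an unadjusted edgeR p under 0.05. By the sex-linked genes Xist and Ddx3y, 2 of 3 control lungs and 1 of 3 lungs in each other group were male, and with sex as a term 0 members had an unadjusted p under 0.05 between hypoplastic and control lungs.

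**Figure D4:**
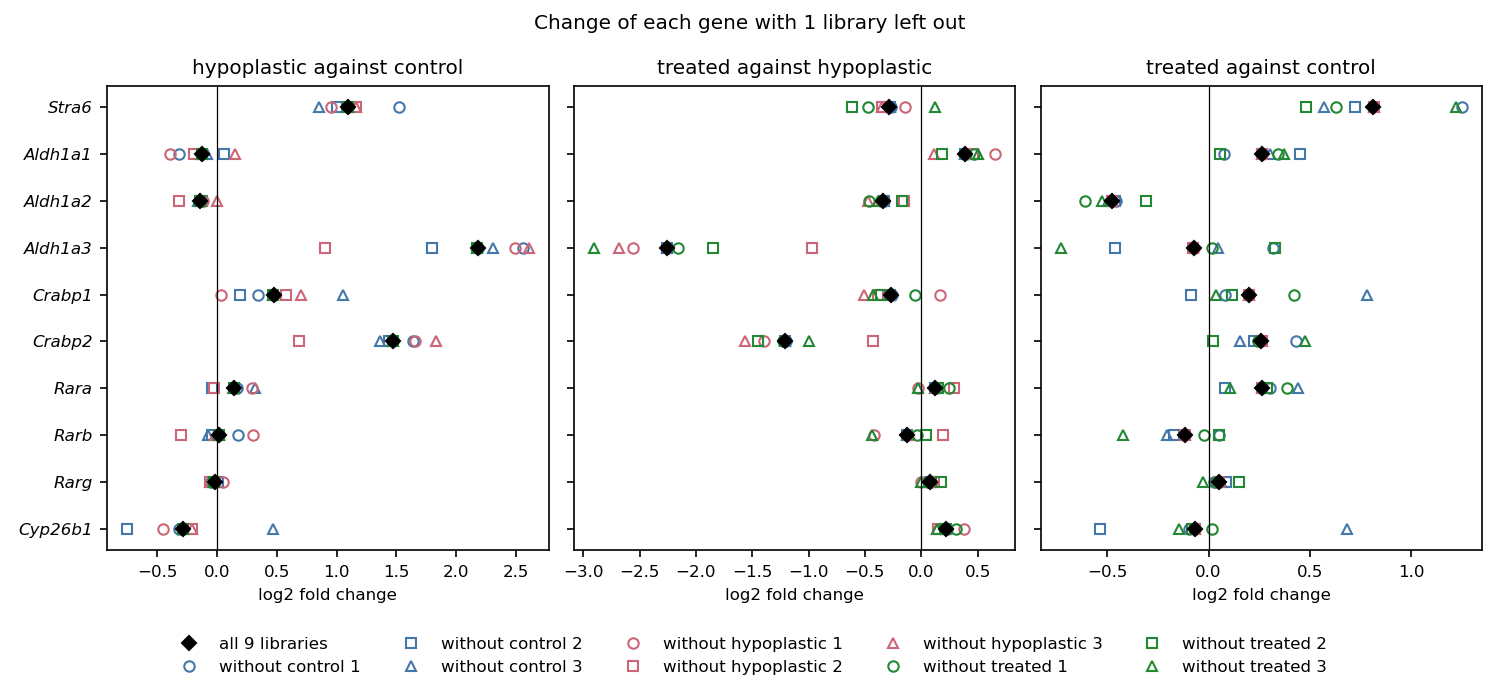
Log2 fold change of each gene in the 3 comparisons with all 9 libraries (black diamond) and with each library left out in turn (open symbols, coloured by the group of the library left out). The values of Aldh1a3 and Crabp2 in hypoplastic against control lungs stay above 0 and shrink to 0.90 and 0.69 without hypoplastic library 2.

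The wider pathway was described by a list of 40 other genes in 5 classes, of which 37 stood in the table and 34 passed the filter. edgeR and limma voom called 0 of the 34 in each comparison. DESeq2 also called 0 of them, but gave no adjusted p for Dhrs9 in any comparison. Without adjustment, 4 had an edgeR p under 0.05 between hypoplastic and control lungs (11.8%, beside 12.4% of all genes), 4 between treated and hypoplastic lungs (11.8%, beside 5.56%) and 0 between treated and control lungs (0%, beside 4.17%). The median log2 fold change of the 34 was 0.08, -0.06 and 0.08 in the 3 comparisons.

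Among the retinol carriers and storage genes, 5 of 7 were tested. All 5 had a positive log2 fold change in hypoplastic against control lungs (0.06 to 0.80), as did 51.9% of all genes. An unadjusted edgeR p under 0.05 was seen for 0 of the 5 there, 1 between treated and hypoplastic and 0 between treated and control lungs. Of all genes, 12.4%, 5.56% and 4.17% had such a p in that order. Rbp4, which encodes the carrier of retinol in blood, was at 2.497, 1.45 and 2.83 CPM in control, 7.15, 2.94 and 0.851 CPM in hypoplastic and 1.49, 1.02 and 1.76 CPM in treated libraries. Its highest lung was hypoplastic library 1 and its lowest hypoplastic library 3. Treated and hypoplastic lungs differed by -1.38 on the log2 scale (SE 0.609, edgeR adjusted p 0.895).

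Of the oxidoreductases that interconvert retinol and retinal, 6 of 7 were tested. In the 3 comparisons 1, 0 and 0 of them had an unadjusted edgeR p under 0.05, beside 12.4%, 5.56% and 4.17% of all genes. Rdh10 and Dhrs3 are named for their role. Rdh10, whose product oxidises retinol, was at 5.52 to 7.26 CPM in all 9 lungs, and Dhrs3, whose product reduces retinal back to retinol, at 40.4 to 104.1 CPM with overlap of all groups. Dhrs9, a retinol dehydrogenase gene, was at 5.83 CPM in hypoplastic library 2 and at 0 to 0.672 CPM in the other 8. Its log2 difference of 3.05 (SE 1.18, edgeR adjusted p 0.366) in hypoplastic against control lungs came with hypoplastic libraries 1 and 3 at 0.427 and 0.416 CPM, inside the control range of 0 to 0.460 CPM. The high lung is the one in which Aldh1a3 was highest.

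The 10 receptor partners, coregulators and binding proteins included 0, 2 and 0 genes at an unadjusted edgeR p under 0.05 in the 3 comparisons. Of all genes, 12.4%, 5.56% and 4.17% had such a p. Ncor1, which encodes a corepressor of nuclear receptors, was at 160.9, 177.2 and 150.1 CPM in hypoplastic and 206.6, 200.9 and 185.4 CPM in treated libraries, without overlap (9.81% of all genes did not overlap in that comparison, and 3 of the 34 list genes), and at 182.4, 187.4 and 187.5 CPM in control libraries. Its log2 fold change was 0.28 (SE 0.0934, edgeR adjusted p 0.859). The RXR genes are named for their role as receptor partners. Rxra ran from 39.2 to 53.1 CPM and Rxrb from 39.2 to 54.4 CPM over the 9 lungs. Rxrg was at 0.517 to 0.797 CPM in control, 0.808 to 0.849 CPM in hypoplastic and 0.526 to 0.646 CPM in treated libraries. The hypoplastic lungs thus lay above both other groups without overlap. Of all genes, 16.7% did not overlap in hypoplastic against control and 9.81% in treated against hypoplastic lungs, in either direction. The share in which hypoplastic lungs lay above both other groups was not computed. Rxrg rested on 29 to 53 estimated counts per library. Its differences were 0.27 (SE 0.276) for hypoplastic against control and -0.49 (SE 0.276) for treated against hypoplastic lungs on the log2 scale, with edgeR adjusted p of 0.722 and 0.914.

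Of the 14 genes known to respond to retinoic acid, 12 were tested. In hypoplastic against control lungs 8 had a positive log2 fold change (median 0.18), as did 51.9% of all genes. In treated against hypoplastic lungs 2 had one (median -0.14), and 48.1% of all genes. In treated against control lungs 6 had one (median 0.0048), and 50.6% of all genes. The first 2 comparisons share the hypoplastic lungs. An unadjusted edgeR p under 0.05 was seen for 3, 1 and 0 of the 12 genes. Of all genes, 12.4%, 5.56% and 4.17% had such a p. Rarres1 was at 21.2 CPM in hypoplastic library 2 and at 0.696 to 9.03 CPM in the others, and the log2 difference of hypoplastic from control lungs was 2.10 (SE 0.861, edgeR adjusted p 0.379). Foxa1, an epithelial transcription factor gene, was at 17.2 to 19.0 CPM in control and 12.8 to 15.7 CPM in hypoplastic libraries, without overlap. In that comparison 2 of the 12 genes and 16.7% of all genes did not overlap. The log2 fold change of Foxa1 was -0.39 (SE 0.158, edgeR adjusted p 0.379). The epithelial marker sum was also higher in every control library (3652 to 5724 CPM) than in every hypoplastic one (2755 to 3341 CPM). Of its genes, Nkx2-1, Sftpc, Sftpb and Cdh1 did not overlap between these groups, while Sftpa1, Ager, Epcam and Krt8 did. The part of this sum in Foxa1 was not tested.

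**Figure D5:**
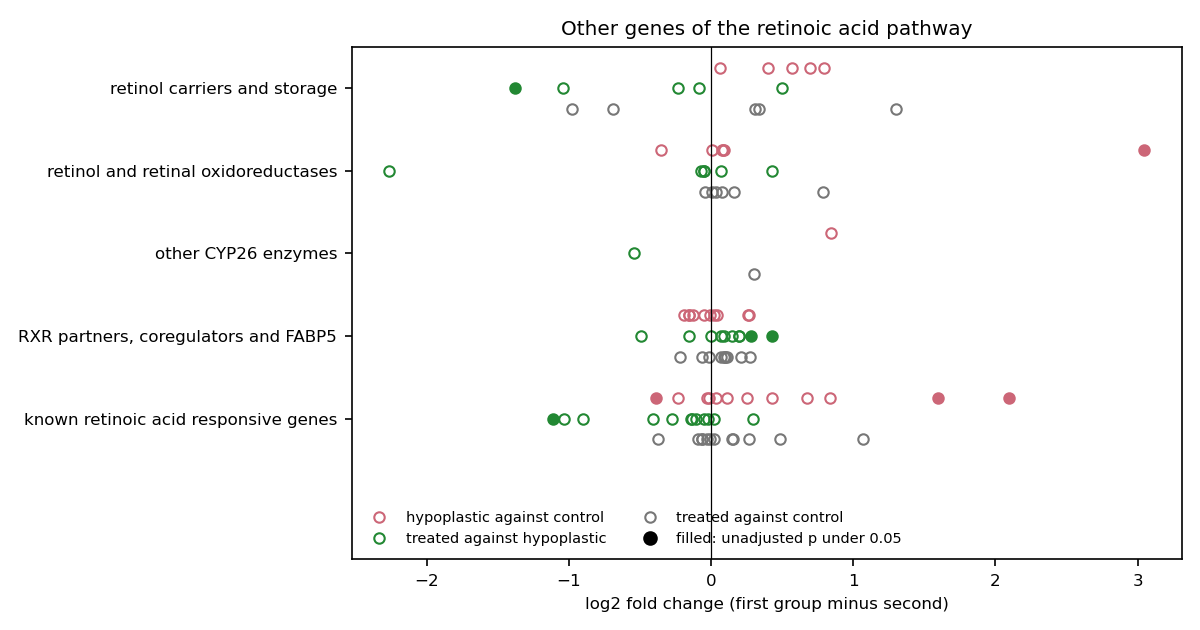
Log2 fold change (horizontal axis) of 34 other genes of the pathway by class, 1 circle per gene and comparison, filled where the unadjusted edgeR p is under 0.05. Most circles lie near 0, and the farthest, at 3.05, is Dhrs9 in hypoplastic against control lungs.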

How the data were processed

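The authors deposited 1 table of estimated counts per gene and library, named by NCBI Gene ID. The values were not normalized between libraries, and 19.5% of the nonzero values were exactly whole. The submitters' processing notes name the rn7 build and DESeq2 without a role. For the aligner, counting, strand and annotation nothing is given in the sources used here, so reads of overlapping or antisense genes could not be separated. Symbols came from RefSeq (assembly GRCr8, names only), which matched 99.1% of the IDs.

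The estimated counts were rounded. Groups were compared with edgeR's quasi-likelihood test (edgeR 4.0.16, R 4.3.3; glmQLFit with legacy=FALSE) with TMM scaling and filterByExpr by group, on all 9 libraries in 1 fit with a term per group. P-values were adjusted by Benjamini-Hochberg over 12966 genes in each comparison, with a threshold of 0.05. Standard errors (absolute change over the square root of F) and the 95% intervals built on them are approximate. DESeq2 1.42.0 and limma 3.58.1 (voom) were alternatives, as were other size factors, no filter, removal of ribosomal and 7SL RNA rows, only the 6 libraries compared, sex as a term, a replicate block and each library left out. Leaving out control library 2 with hypoplastic library 2 was added after seeing the data. The scripts were tested on simulated data. Log2 CPM for correlations used a prior count of 2.

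The members and lists were chosen with earlier results of these data known. All members were named, as was each list gene with an unadjusted p under 0.05 in any comparison, except where a result is not reported here. For the 3 members of smallest p, the 3 genes most like them were named. Marker lists of endothelium, smooth muscle, neutrophils, thymus and red cells were also summed.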

Additional observations from a re-analysis of the deposited data

How the results depend on the processing

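Under 19 alternatives in each of the 3 comparisons, 0 of the 570 member values passed an adjusted p of 0.05 and 40 changed direction. Over all genes in hypoplastic against control lungs, edgeR called 1 gene, and 212 were called with DESeq2, 4 with only the 6 libraries compared, 2 with the replicate block, 2 with control library 2 and hypoplastic library 2 left out, and 0 to 45 with each library left out (45 without hypoplastic library 3, 5 without treated library 2, 2 without hypoplastic library 1, 0 without control library 1 or 3). In treated against hypoplastic lungs the count was 0, and 15 with DESeq2 and 0 to 44 with each library left out (44 without hypoplastic library 3, 2 without hypoplastic library 1). In treated against control lungs it was 0, and 16 with DESeq2, 1 with those 2 libraries left out and 0 to 1 with each library left out (1 without control library 2). Members with an unadjusted p under 0.05 numbered 3 between hypoplastic and control lungs, and 0 with limma voom, 0 with sex as a term, 1 with those 2 libraries left out and 0 to 3 with each left out (0 without hypoplastic library 2, 1 without control library 3). In treated against hypoplastic lungs they numbered 2, and 1 with limma voom, 1 with only the 6 libraries compared, 1 with the replicate block, 0 with those 2 libraries left out and 0 to 3 with each left out (0 without hypoplastic library 2 or treated library 1, 1 without treated library 2 or 3). In treated against control lungs they numbered 1, and 0 with the replicate block and 0 to 2 with each left out (0 without control library 2 or 3 or treated library 2, 2 without treated library 3). The cause was not tested.

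Several log2 fold changes of members changed direction. In hypoplastic against control lungs Cyp26b1 was 0.11 with limma voom, Rarb -0.076 with limma voom, -0.041 with the replicate block and -0.36 with those 2 libraries left out, Rara -0.21 with those 2 left out and Rarg 0.011 with sex as a term. With each library left out there, Aldh1a1 ran from -0.39 to 0.15, Aldh1a2 from -0.32 to 0.00062, Cyp26b1 from -0.75 to 0.46, Rara from -0.043 to 0.32, Rarb from -0.30 to 0.30 and Rarg from -0.063 to 0.052. In treated against hypoplastic lungs Rarb was 0.19 with those 2 left out, and with each left out Crabp1 ran from -0.51 to 0.17, Rara from -0.033 to 0.29, Rarb from -0.44 to 0.19, Rarg from -0.0064 to 0.17 and Stra6 from -0.62 to 0.12. In treated against control lungs Cyp26b1 was 0.33 under limma voom, 0.18 under the replicate block, Crabp1 -0.085 with those 2 left out and Crabp2 -0.044 with sex as a term. With each left out there, Aldh1a3 ran from -0.73 to 0.33, Crabp1 from -0.086 to 0.78, Cyp26b1 from -0.53 to 0.68, Rarb from -0.42 to 0.052 and Rarg from -0.029 to 0.15.

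Nothing states that replicate numbers pair these lungs. Deviations from group means correlated at -0.28 to 0.23 within 9 same-numbered pairs, above 0.1 in 3 of them, and 0 of 9 libraries correlated best with their own number.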

Other observations

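Lrat encodes the enzyme that stores retinol as esters, and was chosen after its values were seen. It was at 19.2, 3.25 and 26.5 CPM in control, 15.8, 16.4 and 19.2 CPM in hypoplastic and 7.72, 1.85 and 15.5 CPM in treated libraries. Every treated lung lay below every hypoplastic lung, by little in treated library 3, in a comparison where 9.81% of all genes did not overlap. The log2 fold change in treated against hypoplastic lungs was -1.04 (SE 0.748, edgeR adjusted p 0.940). Control library 2 was low in Lrat as it was in Cyp26b1, and treated library 2 was low in Lrat as it was in Aldh1a2.

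The count ratio of Cyp26b1, which degrades retinoic acid, to Aldh1a2, which makes it, was 1.92, 0.476 and 3.81 in control, 2.32, 1.33 and 2.06 in hypoplastic and 2.02, 3.64 and 2.80 in treated libraries. The ratio is of counts without correction for length, so only its differences between lungs can be read. The control lungs spanned the other 6. The count ratio of Rara to Rarg was 0.415 to 0.722 in control, 0.575 to 0.760 in hypoplastic and 0.550 to 0.769 in treated libraries, with overlap of all groups.

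The other marker lists gave the following sums. Endothelial markers summed to 746.1 to 913.5 CPM in control, 710.0 to 896.4 CPM in hypoplastic and 681.0 to 917.1 CPM in treated libraries. Smooth muscle markers summed to 178.9 to 494.9, 447.7 to 810.4 and 248.5 to 688.7 CPM in the same order. Neutrophil markers summed to 6.60 to 12.9, 52.2 to 95.2 and 18.8 to 78.7 CPM, so that the control lungs lay below all others in this sum. Thymus markers summed to 1.59 to 6.09, 3.89 to 5.72 and 2.36 to 6.70 CPM. Red cell markers summed to 3422 to 10630, 3113 to 6272 and 3527 to 6346 CPM.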
